A study of Mus musculus with 7 samples.

Results

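Shelterin, the protein complex that caps chromosome ends, and the genes that copy and protect telomeres were examined as a set of 10: Pot1a, Pot1b, Terf1, Terf2, Tinf2, Acd, Terf2ip, Tert, Ctc1 and Rtel1. They were chosen by name, for their function and for the marrow failure that defects of telomere maintenance cause, at a time when earlier results of these data were known. All 10 were found among the 53458 genes of the table and all 10 were among the 20314 genes expressed highly enough to be tested. RNA was sequenced from LT-HSCs (long-term haematopoietic stem cells), which renew the blood for life, of aged C57/BL6 mice. There were 4 libraries of wild-type mice (Srp72+/+, WT below) and 3 of mice carrying a single intact allele of Srp72 (Srp72+/-), a gene of the signal recognition particle, and each library came from a mouse of its own. The sort from bone marrow took cells that were CD150+, cKit+ and Sca1+, that were CD48- and Flt3-, and that were negative for the lineage markers Gr1, Mac1, CD3, B220 and Ter119. The sources used here do not give the exact age of the mice or the part of Srp72 that was altered.

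Chromosome ends in mammals carry repeats of TTAGGG that are bound by shelterin. TRF1 and TRF2, the products of Terf1 and Terf2, hold the double-stranded repeat, POT1 proteins hold its single-stranded end, and TIN2 (Tinf2) and TPP1 (Acd) join these parts. Telomerase, made of the reverse transcriptase TERT and an RNA template, adds repeats, the CST complex to which CTC1 belongs fills in the complementary strand, and the helicase RTEL1 unwinds loops and other structures at telomeres. In humans, inherited defects of several of these genes cause dyskeratosis congenita and related failures of the marrow, in which stem cells are lost as telomeres shorten. Mice have a pair of POT1 proteins where humans have 1.

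One WT library stood apart from its group. In WT 2 the summed level of 12 HSC marker genes was 203 CPM (estimated reads scaled to a common effective library size by TMM, the trimmed mean of M values), against 2403 to 2934 CPM in the other WT libraries and 1445 to 2529 CPM in the Srp72+/- libraries. Of the 12, only Procr was at or under 3 reads in WT 2, and none was in any other library. Transcripts of mature blood cells were abundant in it, with 38801 CPM for 8 neutrophil markers (119 to 8520 CPM in the other WT libraries), 6489 CPM for 8 erythroid markers (119 to 250 CPM) and 10281 CPM for 8 B cell markers (56.6 to 797 CPM). Of the Srp72+/- libraries, Srp72+/- 1 had the lowest HSC marker level and the highest level of these 3 mature lineages (12000, 4638 and 4229 CPM). The summed level of 6 megakaryocyte markers was highest in Srp72+/- 3, at 794 CPM. It was 108 and 179 CPM in Srp72+/- 1 and Srp72+/- 2 and 26.0 to 260 CPM over the WT libraries. The part of these cell types in the values below was not tested, and each genotype difference of a member is given with and without WT 2. In bulk samples, fewer cells of a type and less RNA per cell cannot be told apart. The level of Srp72 itself ran from 88.4 to 136.6 CPM over the WT and from 45.7 to 109.8 CPM over the Srp72+/- libraries. The highest of the latter was the library labelled Srp72+/- 3, which lay above WT 1, WT 3 and WT 4, so for this library the level of the targeted gene goes against the label. It is called Srp72+/- 3 below as its label has it. Log2 fold changes without it are given below for Pot1b, Pot1a, Terf1, Ctc1, Rtel1, Tgs1 and Prim1. Other genes named below moved without it as well, among them Dkc1 (to -0.28), Terc (to -0.24) and Mre11a (to 0.28). The libraries held between 18054322 and 35247472 estimated reads, and 3 reads, taken as the floor of detection, equalled between 0.0851 and 0.166 CPM.

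No difference between the genotypes passed the test for any of the 10 genes. Their fitted log2 fold changes (Srp72+/- against WT) lay between -0.18 for Acd and 0.55 for Pot1b, with 5 above and 5 below 0 and a median of 0.03. With the quasi-likelihood test of edgeR and Benjamini-Hochberg adjustment over all 20314 genes, the adjusted p was 0.9998 for each of them, and 0 of 10 passed 0.05. The background was equally flat, since 0 of the 20314 genes (0%) passed that threshold, 365 (1.8%) had an unadjusted p below 0.05, and DESeq2 called 9 genes (0.0443%), none of them in this set. Over all tested genes 49.3% had a fold change above 0 and the median was -0.01. Without WT 2 the set again had 5 genes above and 5 below 0, with a median of 0.06, beside 0.04 over all genes. The biological coefficient of variation fitted over all genes was 0.628.

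**Figure D1:**
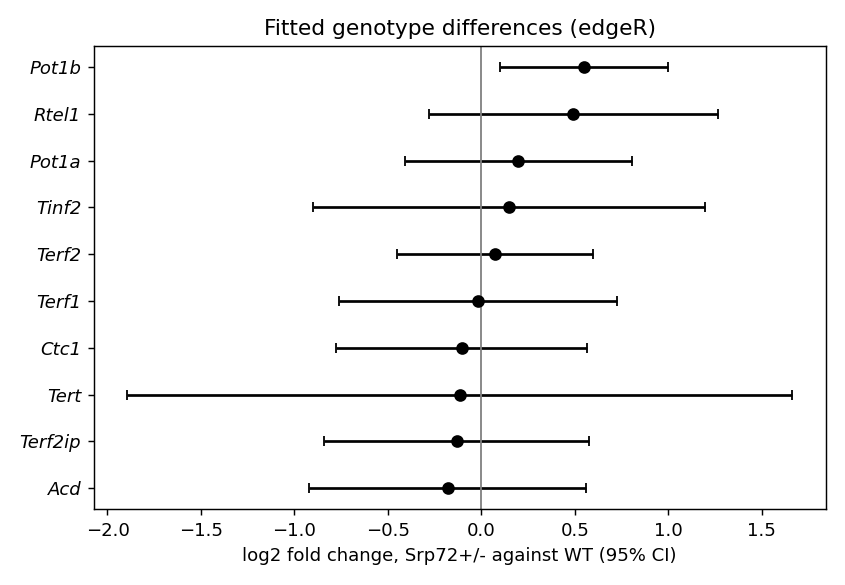
Fitted log2 fold change of each of the 10 genes, Srp72+/- against WT, as points with 95% confidence intervals, with the vertical line at 0. The intervals were worked back from the edgeR fold change and its unadjusted p. The interval of Pot1b (0.099 to 0.996) lies above 0, the other 9 cross it, and that of Tert (-1.89 to 1.66) is the widest.

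**Figure D2:**
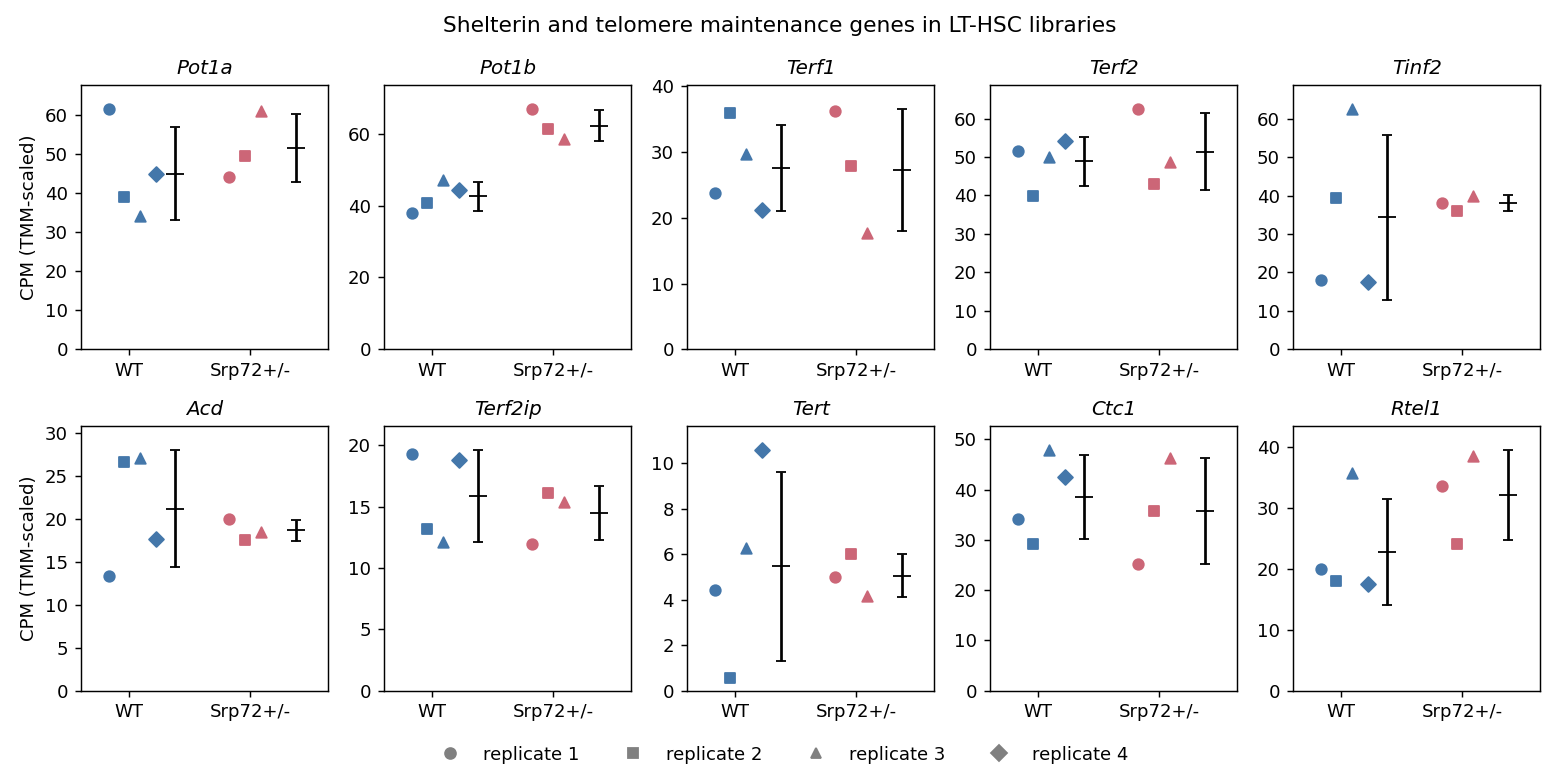
CPM of the 10 genes in each library, with 4 WT libraries in blue and 3 Srp72+/- libraries in red, marker shape giving the replicate number and black bars the mean and SD of each group. Each panel has its own axis from 0. In the panel of Pot1b the 3 Srp72+/- libraries (58.5 to 66.8 CPM) lie above the 4 WT libraries (37.9 to 47.2 CPM), and in every other panel the groups overlap.

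Pot1b was the member with the largest fitted difference. It encodes the POT1 protein that in mice restrains the trimming of the 5′ strand and so sets the length of the 3′ overhang. Pot1b (ENSMUSG00000024174, chromosome 17, 55651951 to 55712628, minus strand, GRCm38) stood at 37.9, 40.8, 47.2 and 44.3 CPM in the WT libraries, numbered 1 to 4, and at 66.8, 61.2 and 58.5 CPM in the Srp72+/- libraries, numbered 1 to 3. All Srp72+/- values lay above all WT values. Among the 10 genes this was the 1 whose groups did not overlap, while 2.08% of all tested genes were separated in that direction and 3.56% in either direction. The means were 42.5 ± 4.08 CPM (SD, n = 4) and 62.2 ± 4.27 CPM (SD, n = 3), a ratio of 1.46 (95% confidence interval 1.07 to 1.99). The corresponding log2 fold change of 0.55 (standard error 0.20) had an unadjusted p of 0.0225 in edgeR. Of all tested genes, 1.01% had an unadjusted p below 0.05 in that direction in the same test. After Benjamini-Hochberg adjustment of the edgeR quasi-likelihood test over all genes the difference did not pass (adjusted p = 0.9998). Without WT 2 the log2 fold change was 0.53 (unadjusted p = 0.0329), and without Srp72+/- 3 it was 0.58 (unadjusted p = 0.0288). Over the 17 other settings and sample sets it stayed between 0.47 and 0.78, with unadjusted p from 0.0136 to 0.142. The 0.78 came from coding transcripts only, which held 21.4% of the Pot1b reads in WT 3 and 90.8% to 97.1% in the other WT libraries. Pot1b had already been noticed in an earlier analysis of these libraries, so the separation is no independent support for a difference. Pot1b overlaps a processed pseudogene, AC154443.2, on the opposite strand over 1411 bases (0.325 to 3.27 CPM), and a small nuclear RNA gene, Gm22654 (0 to 0.402 CPM).

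Pot1a, the paralog, showed no such separation. Its protein prevents the ATR kinase from sensing telomeres as damaged DNA. Pot1a (ENSMUSG00000029676, chromosome 6, 25743737 to 25809246, minus strand) stood at 61.4, 38.9, 34.1 and 44.9 CPM in the 4 WT libraries and at 44.1, 49.3 and 60.9 CPM in the 3 Srp72+/- libraries. The highest and the lowest value were both from WT mice. The means were 44.9 ± 11.9 CPM (SD, n = 4) and 51.5 ± 8.6 CPM (SD, n = 3). Its log2 fold change of 0.20 (standard error 0.27) had a 95% confidence interval from -0.41 to 0.81 and an unadjusted p of 0.476 in edgeR. It was 0.14 without WT 2 and 0.051 without Srp72+/- 3.

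The paralogs were then compared inside each library, where scaling cancels. The ratio of Pot1b to Pot1a in CPM was 0.616, 1.05, 1.38 and 0.985 in WT 1 to WT 4 and 1.51, 1.24 and 0.959 in Srp72+/- 1 to Srp72+/- 3. Both groups held libraries with more reads on Pot1a and libraries with more reads on Pot1b. On the log2 scale the ratio was -0.05 ± 0.48 (SD, n = 4) in WT and 0.28 ± 0.33 (SD, n = 3) in Srp72+/-. The difference of 0.33 did not exceed the spread between libraries (two-sided exact permutation test, p = 0.4, where 35 splits allow no p below 0.0286). Without WT 2 the difference was 0.37, without WT 1, the library with the lowest ratio, it was 0.11, and without WT 3 or without Srp72+/- 3 it was 0.50. The separation of Pot1b was therefore not shown to be particular to it within the pair. Over the 7 libraries the log2 CPM of the paralogs had a Pearson correlation of 0.07, a description of points that share depth and scaling.

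**Figure D3:**
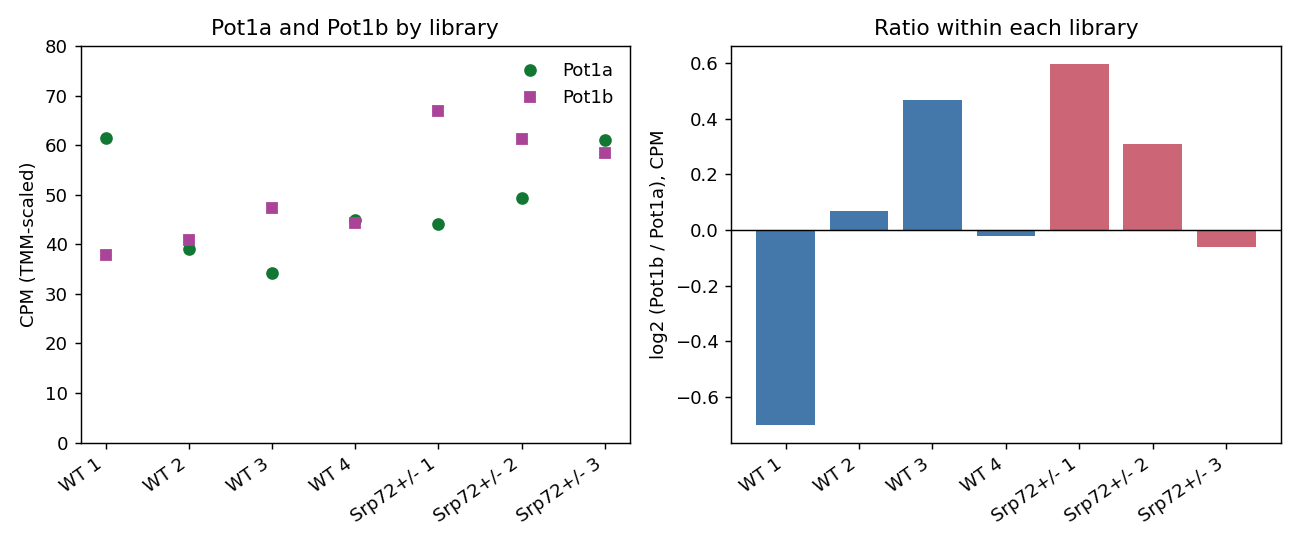
Left, CPM of Pot1a (circles) and Pot1b (squares) in each of the 7 libraries. Right, the log2 ratio of Pot1b to Pot1a in CPM in the same libraries, WT in blue and Srp72+/- in red. The ratio runs from -0.70 in WT 1 to 0.60 in Srp72+/- 1 and the groups overlap.

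The promoters of the pair are shown because the motifs marked in their windows differ in part. A link between these motifs and the levels was not tested. Each is the RefSeq sequence of 300 bases on GRCm38.p6, from 250 before to 50 after a transcription start, printed 5′ to 3′ on the minus strand, on which both genes lie. Capitals mark the GC box GGGCGG, the cyclic AMP response element TGACGTCA and the ETS core CCGGAAG, each searched on both strands. The window of Pot1a is chr6:25809169-25809468 and that of Pot1b, the nearer of 2 entries to the annotated start, is chr17:55712575-55712874.
Pot1a: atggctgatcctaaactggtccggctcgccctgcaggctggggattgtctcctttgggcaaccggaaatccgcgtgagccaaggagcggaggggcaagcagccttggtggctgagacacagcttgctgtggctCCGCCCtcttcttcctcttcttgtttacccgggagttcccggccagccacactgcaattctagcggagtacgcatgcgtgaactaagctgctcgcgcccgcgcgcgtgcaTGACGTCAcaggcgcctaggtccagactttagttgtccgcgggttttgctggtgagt
Pot1b: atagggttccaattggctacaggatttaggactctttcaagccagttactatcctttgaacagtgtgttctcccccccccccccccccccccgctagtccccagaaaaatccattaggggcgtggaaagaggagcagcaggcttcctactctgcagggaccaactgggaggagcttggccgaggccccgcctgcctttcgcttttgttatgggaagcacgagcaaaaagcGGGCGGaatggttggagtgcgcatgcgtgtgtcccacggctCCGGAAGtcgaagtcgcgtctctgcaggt
Both windows hold 1 GC box, on opposite strands relative to transcription. The window of Pot1a has a cyclic AMP response element close to the start and no ETS core, and that of Pot1b has an ETS core close to the start and no cyclic AMP response element. Guanine and cytosine make up 60.7% of the Pot1a window with 22 CpG and 58% of the Pot1b window with 15 CpG, beside medians of 52.67% and 7 CpG over all 32851 promoters of the table. Of the 9 members with an entry (all but Terf1), 7 held a GC box, 4 an ETS core (Pot1b, Tinf2, Terf2ip and Rtel1) and 2 a cyclic AMP response element (Pot1a and Tinf2). The shares over all promoters were 35.7%, 8.86% and 1.79%. No member window held the TATA box TATAAA, which was in 13.6% of all promoters, and Ctc1 alone held an E box CACGTG (7.15% of all). The motifs do not overlap each other in the 2 printed windows, and a match is a description of letters only.

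The double-strand binders Terf1 and Terf2 had no genotype difference larger than the spread between mice. Terf1 (ENSMUSG00000025925, chromosome 1, 15805646 to 15844052, plus strand) encodes TRF1, which helps forks to pass through telomeric repeats. WT mice gave 23.8, 35.9, 29.6 and 21.2 CPM and Srp72+/- mice 36.2, 27.9 and 17.7 CPM. The Srp72+/- group thus held both the highest and the lowest value. The fitted difference was close to 0 (log2 fold change -0.019, standard error 0.33, unadjusted p = 0.955 in edgeR). Its sign turned without WT 2 (0.14) and without Srp72+/- 3 (0.21).

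Terf2 (ENSMUSG00000031921, chromosome 8, 107069400 to 107096547, minus strand) encodes TRF2, which folds the end into a loop and blocks the ATM kinase and end fusion. Its levels were 51.5, 39.8, 49.9 and 54.3 CPM in WT mice and 62.5, 43.0 and 48.6 CPM in Srp72+/- mice. It was the steadiest member, with a coefficient of variation of 14.9% over the 7 libraries. The groups overlapped (log2 fold change 0.072, standard error 0.23, unadjusted p = 0.761 in edgeR), and without WT 2 the fold change was -0.011.

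The bridging subunits varied more between mice than between genotypes. Tinf2 (ENSMUSG00000007589, chromosome 14, 55674689 to 55681820, minus strand) encodes TIN2, the hub that links TRF1, TRF2 and TPP1. The WT mice had 18.0, 39.3, 62.5 and 17.5 CPM, and the Srp72+/- mice 38.1, 36.0 and 39.98 CPM. The WT libraries spanned a 3.58-fold range around 3 closely spaced Srp72+/- values. No difference passed the test (log2 fold change 0.15, standard error 0.46, unadjusted p = 0.755 in edgeR), and the fold change was 0.22 without WT 2 and 0.58 without WT 3, the highest library.

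Acd (ENSMUSG00000038000, chromosome 8, 105695860 to 105701102, minus strand) encodes TPP1, which carries POT1 to shelterin and recruits telomerase. Levels of 13.3, 26.7, 27.1 and 17.6 CPM in WT mice compared with 19.9, 17.6 and 18.5 CPM in Srp72+/- mice. As with Tinf2, the Srp72+/- values fell inside the WT range. The log2 fold change was -0.18 (standard error 0.32, unadjusted p = 0.594 in edgeR), and without WT 2 it was -0.046.

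Terf2ip (ENSMUSG00000033430, chromosome 8, 112011398 to 112020528, plus strand) encodes RAP1, the partner of TRF2. Its reads came to 19.3, 13.2, 12.1 and 18.8 CPM in WT mice and to 11.98, 16.1 and 15.4 CPM in Srp72+/- mice (log2 fold change -0.13, standard error 0.31, unadjusted p = 0.684 in edgeR). Without WT 2 the fold change was -0.21. Terf2ip was high in the libraries in which Tinf2 and Acd were low, WT 1 and WT 4. Over the 7 libraries the Pearson correlation of log2 CPM was -0.88 between Terf2ip and Tinf2, -0.82 between Terf2ip and Acd, and 0.79 between Tinf2 and Acd. Such values were not limited to these genes, as Pot1a and Acd had -0.86, Terf1 and Ctc1 -0.72, and Tinf2 and Rtel1 0.70. These are descriptions over points that share depth and scaling. Tinf2 overlaps Gmpr2 on the opposite strand over 4512 bases (8.21 to 19.7 CPM), Acd overlaps Carmil2 over 2328 bases (3.32 to 38.2 CPM) and Terf2ip overlaps Gm6793 over 1604 bases (0.231 to 2.93 CPM). The strand setting of the counting is not known here. Whether reads from the overlapping bases of these pairs were told apart is therefore not known. The same holds for Pot1b and its opposite-strand neighbours.

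Tert was the most variable member and was lowest in the library that was poor in HSC transcripts. It encodes the catalytic subunit of telomerase and lies on chromosome 13 (ENSMUSG00000021611, 73626911 to 73649843, plus strand). The WT libraries held 4.42, 0.576, 6.28 and 10.6 CPM, from 79, 9, 131 and 235 estimated reads, and the Srp72+/- libraries 4.98, 6.02 and 4.15 CPM, from 94, 135 and 137 reads. WT 4 and WT 2 differed 18.4-fold, and the 3 Srp72+/- values lay between them. The means were 5.46 ± 4.15 CPM (SD, n = 4) and 5.05 ± 0.935 CPM (SD, n = 3), and the log2 fold change of -0.12 (standard error 0.78) had an interval from -1.89 to 1.66 (unadjusted p = 0.885 in edgeR). That interval covers a difference of over 3-fold in either direction, so a change of such size was not excluded at this depth and spread. Without WT 2 the WT mean was 7.09 ± 3.15 CPM (SD, n = 3) and the log2 fold change was -0.49, and without WT 4 it was 0.41. The part of cell composition in the low value of WT 2 was not tested.

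**Figure D4:**
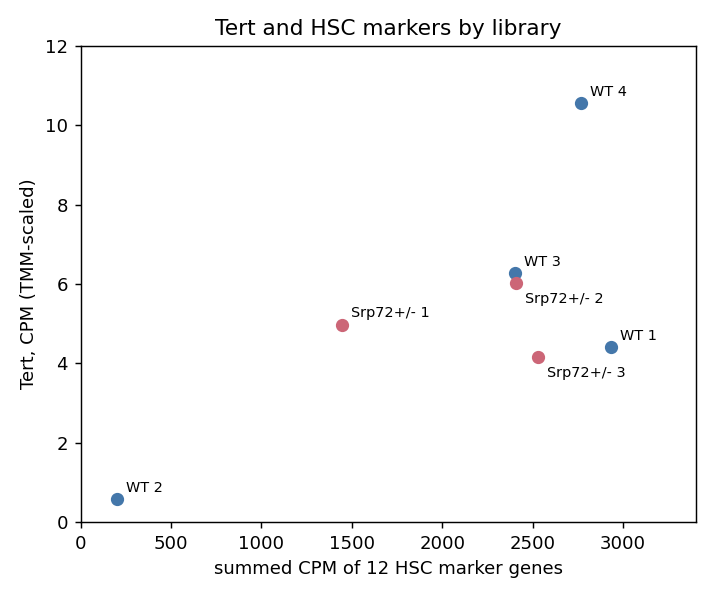
Tert in CPM against the summed CPM of 12 HSC marker genes in each library, WT in blue and Srp72+/- in red. WT 2 is lowest on both axes (203 CPM of markers, 0.576 CPM of Tert), and the 6 other libraries lie between 4.15 and 10.6 CPM of Tert.

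The telomerase RNA and the proteins that assemble it likewise had no difference that passed the test. The RNA gene Terc (chromosome 3, 96414437 to 96414859, minus strand) had 29, 32, 48 and 47 estimated reads in WT and 11, 64 and 86 in Srp72+/- libraries. This equalled 1.63, 2.05, 2.30 and 2.11 CPM against 0.58, 2.86 and 2.61 CPM, and a log2 fold change of -0.0011 (standard error 0.62). The first 60 of its 423 bases are printed as DNA, 5′ to 3′ from the GENCODE transcript, because they contain the template (capitals, bases 29 to 36), whose complement is the repeat that the members bind and extend.
Terc: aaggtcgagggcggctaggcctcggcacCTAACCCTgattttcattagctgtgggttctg
Dkc1, which encodes dyskerin, the protein that stabilises this RNA, ranged from 68.8 to 92.0 CPM over the WT and from 57.9 to 93.0 CPM over the Srp72+/- libraries (log2 fold change -0.11). Of 16 genes of telomerase RNA, assembly and recruitment, 8 had a fold change above 0 and 8 below, the median was 0.0022, and 0 passed the test. The smallest unadjusted p was that of Naf1 (0.0577), an assembly factor of the telomerase particle. Its levels were 25.0, 23.0, 12.4 and 18.0 CPM in WT mice and 11.5, 10.6 and 13.5 CPM in Srp72+/- mice (log2 fold change -0.73, standard error 0.33), with a fold change of -0.64 without WT 2. The groups overlapped through WT 3. Tent4b, which encodes a poly(A) polymerase that adds short tails to this RNA, had a log2 fold change of -0.25. Tgs1, which encodes an enzyme that modifies the cap of small RNAs, had one of -0.24, and -0.63 without Srp72+/- 3.

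Ctc1 and Rtel1, which act when telomeres are replicated, had no difference that passed the test. Ctc1 (ENSMUSG00000020898, chromosome 11, 69015911 to 69036473, plus strand) gave 34.1, 29.3, 47.8 and 42.6 CPM in WT mice and 25.2, 35.7 and 46.3 CPM in Srp72+/- mice. The Srp72+/- values spread over nearly the whole WT range and below it. Its fitted difference was small (log2 fold change -0.10, standard error 0.29, unadjusted p = 0.730 in edgeR). It was -0.21 without WT 2 and -0.34 without Srp72+/- 3.

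Rtel1 (ENSMUSG00000038685, chromosome 2, 181319739 to 181356616, plus strand) gave 20.0, 18.0, 35.7 and 17.4 CPM in WT mice and 33.6, 24.1 and 38.5 CPM in Srp72+/- mice. WT 3 lay among the Srp72+/- values, while the other 3 WT libraries lay below all of them. The means were 22.8 ± 8.70 CPM (SD, n = 4) and 32.1 ± 7.34 CPM (SD, n = 3). For this difference edgeR gave a log2 fold change of 0.49 (standard error 0.34, interval -0.28 to 1.27, unadjusted p = 0.181). It was 0.40 without WT 2 and 0.33 without Srp72+/- 3. Without WT 3 it was 0.77 (unadjusted p = 0.0341), which again did not pass after Benjamini-Hochberg adjustment of the edgeR test over all genes (adjusted p = 0.9998).

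Among 19 partners of CST and factors of fill-in and telomere replication, 12 had a fold change above 0 and 7 below, the median was 0.11, and 0 passed the test. The count above 0 was 8 without Srp72+/- 3, and 9 without WT 1, without WT 3 or without WT 4. Without WT 2 it was 17, with 2 below and a median of 0.23, where 10544 of all 19856 tested genes were above 0. In that set of 6 libraries the marker lists moved as well, and in part more. All 8 erythroid markers had higher fitted values in Srp72+/- mice (median 3.30), as did all 8 neutrophil markers (median 0.80) and all 6 tested B cell markers (median 1.88), while 11 of 12 HSC markers had lower values (median -0.44). Higher values were also fitted for all 6 megakaryocyte markers (median 0.98) and all 6 monocyte and macrophage markers (median 0.83). Of the 4 tested T and NK markers, 3 were higher and 1 lower. The 6 megakaryocyte markers were higher in the fit of all 7 libraries too (median 1.35). All 9 proliferation markers also had higher fitted values in Srp72+/- mice (summed level 761 to 1085 CPM in these 3 WT and 1124 to 2446 CPM in the Srp72+/- libraries), and the part of these lists in the result was not tested. Mus81, which encodes a structure-specific endonuclease, was at 2.30, 5.604, 5.66 and 2.88 CPM in WT mice and at 7.20, 7.23 and 8.67 CPM in Srp72+/- mice (log2 fold change 0.90, standard error 0.46). Its groups did not overlap, as in 2.08% of all tested genes in that direction, and without WT 2 the fold change was 1.09. Ten1, a partner of CTC1 in CST, was separated in the other direction, at 4.995, 9.12, 4.16 and 5.05 CPM against 3.13, 4.05 and 2.61 CPM (log2 fold change -0.84, standard error 0.46), as in 1.48% of all tested genes. Without WT 2 its fold change was -0.53. Prim1, the catalytic subunit of primase, had a log2 fold change of 0.57, which was 0.21 without Srp72+/- 3.

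Of 15 genes of telomere binding, chromatin and end signalling, 7 had a fold change above 0 and 8 below, with a median of -0.035 and 0 past the test. Without WT 2, 4 were higher and 11 lower, in the fit in which the marker lists moved as given above, and their part in this was not tested. Mre11a, which encodes the nuclease of the break-sensing MRN complex, had the smallest unadjusted p of the list (0.117), at a mean of 39.4 ± 5.39 CPM (SD, n = 4) against 52.4 ± 10.1 CPM (SD, n = 3) in Srp72+/- mice. Its log2 fold change was 0.41, and 0.32 without WT 2. Atrx, a chromatin remodeller active at telomeres, ran from 384.9 to 448.6 CPM over WT and from 338.6 to 374.6 CPM over Srp72+/- mice. Its groups were separated, as in 1.48% of all tested genes in that direction. The log2 fold change was only -0.24, and -0.22 without WT 2. Tnks2, which encodes a tankyrase, had a log2 fold change of -0.21, and -0.22 without WT 2.

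Levels of different genes were compared per length, as TPM (a length-corrected abundance), and neighbours in the order of mean TPM were then compared within each library, because a single transcript of 57 nt, Gm23935-201, took 30.7% to 46.7% of the TPM of a library. The mean TPM over the 7 libraries was 21.6 for Terf2, 15.8 for Pot1a, 14.6 for Rtel1, 9.19 for Tinf2, 8.07 for Ctc1, 7.90 for Pot1b, 7.44 for Terf1, 7.34 for Acd, 2.04 for Tert and 1.90 for Terf2ip. By TPM, 2 pairs of neighbours were ordered alike in all 7 libraries, Rtel1 above Tinf2 and Acd above Tert. The remaining neighbours, including those between Tinf2 and Acd, changed places in 1 to 4 libraries. Neither pair keeps its order under every measure. By CPM per kb of the longest coding transcript Rtel1 (6.08) lay below Tinf2 (12.1), and by TPM of transcripts annotated as protein coding Acd (0.169) lay below Tert (0.332). Transcripts under 1000 nt, on which few reads give a high TPM, supplied 80.6% of the TPM of Rtel1 and 77.1% of that of Tert.

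The order of the POT1 paralogs depended on which transcripts were counted. By TPM over all transcripts Pot1a lay above Pot1b in 7 of 7 libraries, at 15.8 ± 4.64 against 7.90 ± 2.82 (SD, n = 7). By TPM of transcripts annotated as protein coding Pot1b lay above Pot1a in 6 of 7 libraries, at 6.11 ± 2.19 against 3.97 ± 1.37 (SD, n = 7). By CPM per kb of the longest coding transcript Pot1a lay above Pot1b in 4 of 7 libraries, at 15.1 ± 3.30 against 14.5 ± 3.17 (SD, n = 7). Short transcripts, under 1000 nt, supplied 64.1% of the TPM of Pot1a and 15.9% of that of Pot1b.

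Much of the signal of several members was assigned to transcripts that are not annotated as coding. Over all libraries coding transcripts held 89.8% of the estimated reads of Terf2ip, 79.8% of Pot1b, 72.8% of Ctc1 and 65.2% of Pot1a. The shares were 50.5% for Terf2, 49.8% for Rtel1, 41.2% for Terf1 and 40.7% for Tinf2. Acd had 5.4%, with its coding transcript at 0 reads in WT 4 and in all Srp72+/- libraries, and 74.8% of its reads on transcripts annotated for nonsense-mediated decay. Retained introns took 59.3% of the reads of Tinf2 (34.7% to 75.6% by library). These divisions are estimates among overlapping transcripts and can switch between libraries. In WT 3, for example, the coding transcript Pot1b-201 (3523 nt) had 0 reads and Pot1b-204 (3582 nt, annotated for nonsense-mediated decay) had 68.1% of the reads of Pot1b, while in the other 3 WT libraries Pot1b-204 had 0.

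**Figure D5:**
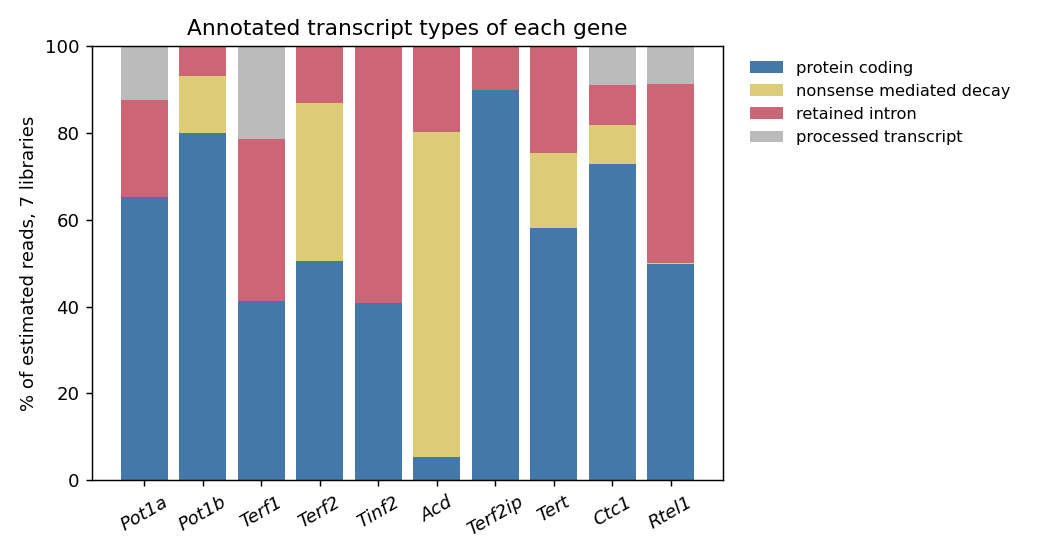
Share of the estimated reads of each gene, summed over the 7 libraries, by the annotated type of the transcript. The protein-coding share runs from 5.4% for Acd to 89.8% for Terf2ip.

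Terf1 was the member whose retained-intron shares did not overlap between the groups. The retained-intron transcript Terf1-204 (2908 nt) held 29.9%, 37.4%, 23.0% and 20.3% of the Terf1 reads in WT 1 to WT 4 and 53.1%, 39.1% and 51.7% in Srp72+/- 1 to Srp72+/- 3. All Srp72+/- shares lay above all WT shares, with means of 47.9 ± 7.71% (SD, n = 3) and 27.7 ± 7.63% (SD, n = 4), although WT 2 and Srp72+/- 2 were close. In Srp72+/- 3 the processed transcript Terf1-202 had 0 reads, while it held 20.4% to 31.9% of the Terf1 reads in the other libraries. The part of this division of reads in the retained-intron share was not tested. Of 9 members with at least 100 reads in every library, Terf1 was the 1 whose shares were separated. Of 5113 tested genes with that depth and an annotated retained-intron transcript, 4.71% were separated upward and 1.11% downward, so the background already leaned the same way. The median retained-intron share over these genes was 10.3% to 12.5% in WT and 10.5% to 14.7% in Srp72+/- libraries. The share was picked out after its values were seen and was not tested.

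The genes whose log2 CPM ran most like Pot1b over the 7 libraries, among 10099 protein-coding genes of at least 5 CPM, were Ttll3 (Pearson r = 0.97), Wdcp (0.95), Fchsd1 (0.93), Dclre1a (0.90) and Cgrrf1 (0.90). Those most like Pot1a were Atl3 (0.98), Ubash3b (0.96), Ltbp1 (0.95), Ahcyl1 (0.95) and Bcas3 (0.95). These are the highest of 10099 values over 7 points that share depth and scaling, and they describe likeness only. Within the set itself the member nearest to Pot1b was Rtel1 (r = 0.67) and that nearest to Pot1a was Terf2ip (r = 0.68).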

How the data were processed

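The series holds 7 libraries of total RNA from sorted LT-HSCs, which per the labels' protocols was amplified with the Ovation RNA-seq system V2 and prepared with a TruSeq V2 kit. The deposited tables give estimated counts (expected counts) and TPM per transcript, made by the authors with Salmon 0.12.0 per the submitters' processing notes, which list GRCm38.p6 and mm10 as builds. The effective lengths in the deposited tables served for a length offset. Of the transcript release, strand setting and bias options, none was given in the sources used here.

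Of 136288 transcripts, 136176 matched GENCODE M21, and their values were summed per gene. Estimated counts were rounded to whole numbers, filtered with filterByExpr (minimum count 10, minimum total 15), scaled by TMM and tested with edgeR 4.0.16 in R 4.3.3 (robust quasi-likelihood test, no covariate, all 7 libraries, Benjamini-Hochberg adjustment, threshold 0.05). The standard errors and confidence intervals are not direct output of this test. They were worked back from its fold change and unadjusted p through the t distribution. CPM are on effective library sizes, and logarithms used a prior count of 2. The test was tried on simulated data first. The Pot1b to Pot1a ratio had a two-sided exact permutation test. P-values measure the spread between these 7 libraries, and the detection floor covers counting error only, since reads carried no molecular identifiers. Reads shared by overlapping transcripts were divided by the authors' tool, which can shift shares and levels.

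The members and lists were chosen with earlier results of these data known. Named from each related list were the 3 tested genes with the smallest unadjusted p, with Terc and Dkc1 always, and for the pattern of each POT1 gene the 5 protein-coding genes of highest correlation. Alternatives were scaling by RLE or upper quartile, a stricter filter (1 CPM in 3 libraries, mean count 10) or none, a length offset, DESeq2 1.42.0, voom with quality weights (limma 3.58.1), coding transcripts only, a replicate block and each library left out. The block leaves out WT 4, which has no partner. Levels from coding transcripts or per kb, and leaving out both WT 2 and Srp72+/- 1, were chosen after seeing the data.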

Additional observations from a re-analysis of the deposited data

Results flagged for a closer look

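Mre11a, the nuclease gene of the MRN complex, measured 31.5 CPM in WT 2 and 41.4, 43.3 and 41.5 CPM in WT 1, WT 3 and WT 4. The gap between WT 2 and its nearest neighbour, divided by the range of the group, exceeded Dixon's 95% critical value for 4 libraries. WT 2 is the library with the low HSC marker level, and the part of its composition in this value was not tested. Of 22 groups of WT values examined on this log2 scale, 1 was picked out in this way, where chance picks about 1 in 20. The next highest ratio was that of Rtel1 (0.809, for WT 3). Unlogged CPM, on which the groups picked out can differ, were not examined in this way.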

How the results depend on the processing

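No member had an adjusted p below 0.05 in any of 17 alternatives to the reported edgeR fit. Genes past that threshold over the whole table numbered 0 in that fit, 9 with DESeq2, 1 without WT 4 and 0 in the other alternatives. The fold changes of Pot1a, Pot1b, Acd, Terf2ip and Rtel1 kept their sign throughout. Signs turned for Terf2 with the length offset (-0.038), voom (-0.049) and without WT 2 and Srp72+/- 1 (-0.18), for Terf1 with upper-quartile scaling (0.028) and voom (0.19), for Tinf2 (-0.084) and Dkc1 (0.087) with coding transcripts only, and for Terc with the stricter filter (0.0056), upper-quartile scaling (0.041) and without WT 2 and Srp72+/- 1 (0.44). In each of these the cause was not tested. Leaving out single libraries gave -0.30 to 0.21 for Terf1, -0.11 to 0.17 for Terf2, -0.092 to 0.58 for Tinf2, -0.49 to 0.41 for Tert, -0.34 to 0.078 for Ctc1, -0.35 to 0.42 for Terc, -0.28 to 0.038 for Dkc1, and 0 to 1 genes called. For the Pot1b to Pot1a ratio the difference was 0.44 in TPM and 0.87 over coding transcripts, with exact permutation p of 0.257 and 0.171. In WT 3 coding transcripts held 21.4% of the Pot1b reads, against 90.8% to 97.1% in the other WT libraries. The part of this division of reads in the 0.87 was not tested.

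The deviations of libraries with the same replicate number had correlations of -0.32, -0.16 and 0.00. The highest value between any WT and Srp72+/- library was 0.39, for WT 2 and Srp72+/- 1, each the richest of its group in neutrophil, erythroid and B cell markers. With such libraries present, these correlations cannot show whether the numbers pair the mice. The fit with the replicate number as a block also leaves out WT 4, which has no partner. In it 0 genes passed, 134 had an unadjusted p below 0.05, Tert turned to 0.81, and the Pot1b to Pot1a difference was 0.34 (exact p = 0.75, where the smallest possible is 0.25). Without WT 4 and without the block, 302 genes had such a p, Tert was 0.41 and the difference was again 0.34. No filter raised the median fold change of all genes from -0.01 to 0.13. The coding-transcript fit of Acd rests on Srp72+/- libraries at 0 reads and gives no fold. The telomerase list had 3 to 5 of 16 genes higher under the length offset, the block, voom and without Srp72+/- 3 or WT 4, and the binding list 3 to 4 of 15 under voom and without Srp72+/- 3 or WT 2. The lowest read numbers behind a value were 9 for Tert (WT 2) and 11 for Terc (Srp72+/- 1).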
